A study of Mus musculus with 2 samples.

Results

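The miR-17-92 and miR-106b-25 clusters are a pair of related miRNA genes, each transcribed as a single precursor that is cut into several mature miRNAs. The 10 mature products examined were picked by their names among the array's probes that are not controls: mmu-miR-17-5p, mmu-miR-17-3p, mmu-miR-18a-5p, mmu-miR-19a-3p, mmu-miR-20a-5p, mmu-miR-19b-3p and mmu-miR-92a-3p of miR-17-92, and mmu-miR-106b-5p, mmu-miR-93-5p and mmu-miR-25-3p of miR-106b-25. The prefix for mouse is left out below. They are 10 of the 1881 mouse miRNAs on the array. Whole femurs, with bone and marrow together, came from wild-type female C57BL/6 mice aged 9 months that had undergone either ovariectomy (OVX), the removal of the ovaries and with them most estrogen production, or a sham operation. Each group was 1 sample mixed from the tissue of 4 mice on 1 single-colour Agilent array, so the spread between mice was not measured and no test between the groups could be made. "Higher" and "lower" compare 1 array with the other, and in pooled tissue fewer cells of a type and less RNA per cell cannot be told apart.

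A miRNA directs silencing mainly through its seed, bases 2 to 8 from the 5′ end, so miRNAs with one seed share many predicted targets. The miR-17-92 cluster is induced by MYC and E2F factors, promotes proliferation and survival of blood progenitors and lymphoid cells, and is needed for normal skeletal growth. The miR-17 and miR-106b group restrains cell cycle inhibitors and pro-apoptotic proteins, and the miR-25 and miR-92a pair restrains integrins and the pro-apoptotic BIM. The miR-106b-25 cluster lies within Mcm7, a gene for a subunit of the DNA replication helicase, and follows its transcription.

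All 10 mature sequences were matched by name in the RefSeq table (GRCm38.p6). They are shown because products with a shared seed are compared within and across the clusters; the seeds stand in capitals. The miR-17 group has the seed shared by 4 of the products, 2 from each cluster:
miR-17-5p: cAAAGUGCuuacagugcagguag
miR-20a-5p: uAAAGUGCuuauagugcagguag
miR-106b-5p: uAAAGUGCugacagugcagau
miR-93-5p: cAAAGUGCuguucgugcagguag
The seed of miR-18a-5p differs from that of miR-17-5p by the substitution A4G, with positions counted from 1 at the 5′ end:
miR-18a-5p: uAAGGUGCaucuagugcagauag
The miR-19 pair occurs only in miR-17-92 among these clusters, and its members differ by the single substitution U11C from miR-19a-3p to miR-19b-3p:
miR-19a-3p: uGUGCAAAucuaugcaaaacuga
miR-19b-3p: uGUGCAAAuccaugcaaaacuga
The miR-25 and miR-92a pair has 1 product from each cluster, with 18 of 21 aligned bases equal:
miR-92a-3p: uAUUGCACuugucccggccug
miR-25-3p: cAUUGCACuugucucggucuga
The last product, miR-17-3p, is the opposite arm of the miR-17 hairpin, in which both arms are capitalised below, and has a seed of its own:
miR-17-3p: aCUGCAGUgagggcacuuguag
Mir17 hairpin: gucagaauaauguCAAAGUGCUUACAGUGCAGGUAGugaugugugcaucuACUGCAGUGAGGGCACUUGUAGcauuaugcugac

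The files place the probes on mouse build mm9, and some listed matches span 1 base less than the probe. In transcript order the miR-17-92 probes match the plus strand of chromosome 14 for miR-17-5p at chr14:115442916-115442928, miR-17-3p at chr14:115442951-115442964, miR-18a-5p at chr14:115443094-115443111 and miR-19a-3p at chr14:115443273-115443292. They go on with miR-20a-5p at chr14:115443410-115443427, miR-19b-3p at chr14:115443583-115443602 and miR-92a-3p at chr14:115443702-115443718, so the matches of the cluster span 803 bases. The miR-106b-25 probes match the minus strand of chromosome 5 within 392 bases, with miR-106b-5p at chr5:138606981-138606996, miR-93-5p at chr5:138606773-138606787 and miR-25-3p at chr5:138606605-138606621. In the RefSeq gene table (GRCm38.p6) the genes Mir106b, Mir93 and Mir25 lie inside Mcm7, and Mir92-1 lies inside Mir17hg, the noncoding host gene of miR-17-92. Mir17, Mir18, Mir19a, Mir20a and Mir19b-1 lie inside no gene in that table. The probes of 3 products also match the related miR-106a-363 cluster on chromosome X, which holds second copies of miR-19b and miR-92a: miR-17-5p at chrX:50095694-50095706, miR-19b-3p at chrX:50095216-50095235 and miR-92a-3p at chrX:50095073-50095089. Their signals therefore cannot be assigned to 1 cluster.

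The products were well measured against the rest of the array. A probe counted as well above background if the scanner software marked more than 50% of its spots so, and 1 such probe made a miRNA present. On the sham array 9 of the 10 were present, against 10.7% of all miRNAs, and on the OVX array all 10, against 15.9%. Present on both were 9, against 10.5% of all, and miR-17-5p was present in OVX only. Each product had 2 probes that differ by 1 base in length, and 17 of these 20 probes were usable on both arrays, with up to 15 spots each. The OVX array was 2.02 times brighter than the sham array at the 75th percentile of the 350 probes usable on both. Differences are therefore given on the log2 scale, OVX minus sham, from signals divided by that percentile of their own array, and they are relative to the other miRNAs. The error is the standard error between spots of a probe (spot SE), which holds no variation between mice.

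Blood-cell markers were present on both arrays. These were all 4 red-cell markers, miR-451a among them, and 3 of the 4 arms of miR-223 and miR-142a, miR-223-3p among them. The summed scaled signal of the red-cell markers was 52.8 in sham and 63.4 in OVX, in multiples of the scaling signal. It was 71.6 and 52.6 for the miR-223 and miR-142a arms, and 2.99 and 3.90 for the 4 lymphocyte markers. Of 4 skeletal muscle markers, miR-1a-3p and miR-206-3p were not well above background on either array, and miR-133a-3p and miR-133b-3p were present in sham only; of 5 stromal markers only miR-199a-3p was present, in OVX. The cartilage markers miR-140-3p and miR-140-5p differed by -0.49 and 0.17, and of the 2 endothelial markers miR-126a-3p was present, at 0.77. The red-cell markers differed unevenly, by 0.28 for miR-451a, 0.85 for miR-144-3p, 0.97 for miR-144-5p and -0.71 for miR-486a-5p. So did the miR-223 and miR-142a arms, with miR-223-3p at -0.63, miR-142a-3p at 0.63, miR-142a-5p at 1.08 and miR-223-5p not well above background. The lymphocyte markers stood at 1.43 for miR-150-5p, 0.22 for miR-342-3p, -0.21 for miR-181a-5p and -0.36 for miR-181b-5p. The summed signal of the 10 cluster products was 29.5 in sham and 29.6 in OVX on the same scale. The part of blood-cell makeup in the differences below was not tested.

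Scaled to the 75th percentile, the cluster products as a set differed little between the arrays, and no single product reached 1.5-fold. Their median difference was 0.08, or 1.05-fold, against -0.04 for all 197 miRNAs present on both arrays. Of the 9 measured, 5 were above 0 and 4 below, where 47.2% of all miRNAs were above 0 and 52.8% below. None of the 9 was at least 1.5-fold different in either direction, against 25.9% of all 197 (11.2% higher and 14.7% lower in OVX), and none was 2-fold different, against 2.03% in each direction; miR-17-3p at -0.58 and miR-19a-3p at 0.57 lay next to that limit of 0.58. The differences of the products nevertheless spanned 1.15 from the highest to the lowest, and 4 of the 9 fell between the quartiles of all miRNAs, -0.36 and 0.28. These counts depend on the scaling: without scaling the median was 1.09 and 8 products were at least 1.5-fold higher, and with control probes these were 0.72 and 5, while 7 further alternatives gave 1 or 2 products past 1.5-fold. The miR-19 pair had the highest differences, and the miR-25 and miR-92a pair and miR-17-3p the lowest. Between the miR-19 pair and the miR-25 and miR-92a pair lay the measured miR-17 group, at 0.24, 0.08 and -0.27, with miR-18a-5p at 0.20 inside its range. The lower border of that group was not resolved. There miR-93-5p exceeded miR-25-3p by 0.11 (spot SE 0.05), which is within the SD of 0.11 between probes of a miRNA. miR-93-5p also lay farther from the other measured members of its own group.

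**Figure D1:**
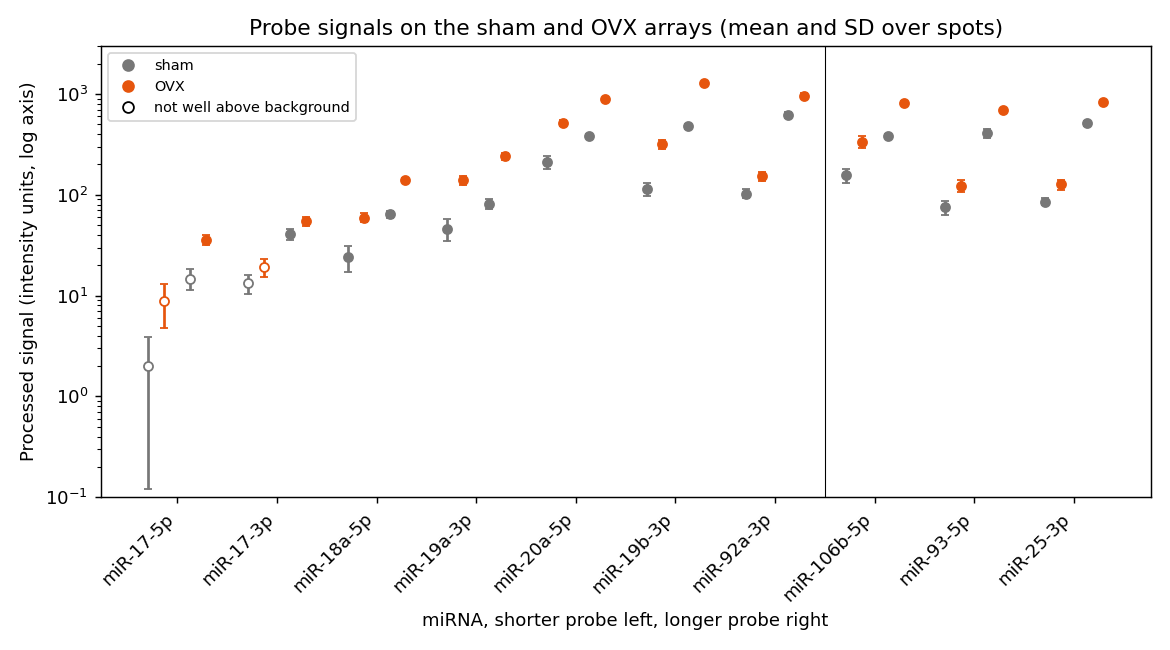
Processed signal of both probes of each product on a log axis, as mean and SD over spots, for the sham array (grey) and the OVX array (orange), with open symbols where a probe was not well above background; the vertical line separates miR-17-92 (left) from miR-106b-25 (right). Every usable probe was brighter on the OVX array before scaling, by 1.35 to 3.02 times.

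The miR-19 pair was higher in OVX. The longer miR-19a-3p probe had a processed signal of 81.2 ± 8.82 (SD, 15 spots) in sham and 241.2 ± 18.5 (SD, 15 spots) in OVX, and its shorter probe 46.2 ± 11.7 (15 spots) and 139.6 ± 14.7 (13 spots). Before scaling these were 2.97-fold and 3.02-fold brighter on the OVX array, the largest ratios among the usable probes of the products. After scaling miR-19a-3p was 1.48-fold higher (log2 0.57, spot SE 0.06), which is rank 23 of the 197 differences from the highest. The longer miR-19b-3p probe gave 480.5 ± 25.6 (13 spots) in sham and 1288 ± 29.5 (15 spots) in OVX. The shorter one gave 114.3 ± 17.1 and 316.9 ± 34.3 (14 spots each). miR-19b-3p was 1.35-fold higher after scaling (log2 0.43, spot SE 0.04), rank 31. The difference of miR-19a-3p exceeded that of miR-19b-3p by 0.14, with a spot SE of 0.07. That order turned in 3 alternatives, with miR-19a-3p and miR-19b-3p at 0.44 and 0.47 under quantile normalization, 0.23 and 0.45 with normexp background correction, and 0.41 and 0.50 in the deposited value table. The probes of each member of the pair have 1 mismatch with the other member, so the pair is not independent, and how much each probe binds the other member was not tested.

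The miR-17 group went both ways, with miR-20a-5p and miR-106b-5p above 0 and miR-93-5p below. miR-20a-5p, which shares all but 2 of its 23 bases with miR-17-5p (C1U and C12U from miR-17-5p), had a longer probe at 385.5 ± 16.2 (15 spots) in sham and 885.3 ± 28.3 (15 spots) in OVX. Its shorter probe gave 209.9 ± 30.4 (15 spots) and 515.4 ± 39.2 (14 spots). It was 1.18-fold higher after scaling (log2 0.24, spot SE 0.03). miR-106b-5p, the first product of its cluster, gave 385.2 ± 18.2 (14 spots) in sham and 814.4 ± 42.0 (15 spots) in OVX on its longer probe, and 156.7 ± 24.5 and 335.5 ± 44.9 (15 spots each) on its shorter probe. It differed by 0.08 (spot SE 0.04), less than the SD of 0.11 between probes of the same miRNA over the array.

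miR-93-5p, the next product of the same transcript, was lower than miR-106b-5p in its difference by 0.35 (spot SE 0.06). Its longer probe gave 409.8 ± 44.9 (15 spots) in sham and 695.6 ± 21.3 (13 spots) in OVX. The shorter probe gave 74.9 ± 11.8 and 123.2 ± 16.8 (14 spots each). It was 0.828-fold after scaling (log2 -0.27, spot SE 0.05), with its probes at -0.25 and -0.29. The miR-17 group therefore spanned 0.51 between miR-20a-5p and miR-93-5p, and the products of miR-106b-25 alone spanned 0.46 between miR-106b-5p and miR-25-3p.

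miR-17-5p, which gives the group its name, was too dim for a difference. Its probes are the shortest of the set, 12 and 13 bases long, and pair with the 3′ end of the miRNA from base 12 or 11 to base 23. Both have no mismatch with miR-106a-5p of the chromosome X cluster, which differs from miR-17-5p by U10A outside the probed bases, and both have 1 mismatch with miR-20a-5p:
miR-106a-5p: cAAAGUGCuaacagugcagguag
The 13-base probe had a signal of 14.7 ± 3.46 (15 spots) in sham, where 13.3% of its spots were well above background, and 35.8 ± 3.87 (14 spots) in OVX, where all were. The 12-base probe was not well above background on either array, at 1.99 ± 1.87 and 8.86 ± 4.03 (15 spots each). A bound was computed by setting the OVX level of the brighter probe against the lowest level of a present probe on the sham array, or the probe's own sham level where that was higher. After scaling this bound was below 1 and gave no fold. The probe was at least 2.01-fold brighter in OVX without scaling and at least 1.55-fold with the arrays scaled to their control probes. In these settings 98.0% and 86.8% of all miRNAs present on both arrays were above 0. The OVX array itself was 2.02 times brighter at the 75th percentile, so neither bound is particular to miR-17-5p. The signal cannot be divided between miR-17-5p and miR-106a-5p.

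miR-18a-5p, whose seed is 1 base from that of the miR-17 group, lay beside miR-20a-5p. Its longer probe gave 64.0 ± 4.53 in sham and 140.6 ± 7.73 in OVX, and its shorter probe 24.3 ± 6.98 and 59.5 ± 5.90 (14 spots each). It was 1.15-fold higher after scaling (log2 0.20, spot SE 0.06), with its longer probe at 0.12 and its shorter probe at 0.28. The shorter probe was dim in sham, where 78.6% of its spots were well above background. With only probes whose every spot was well above background, miR-18a-5p stood at 0.12. As reported, miR-18a-5p differed from miR-20a-5p by -0.03 (spot SE 0.07), which is within the spot error. They lay farther apart with normexp, where miR-18a-5p stood at -0.16 and miR-20a-5p at 0.33, and in the deposited value table, at 0.02 and 0.21.

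The miR-25 and miR-92a pair was lower in OVX by almost the same amount, although its members come from different chromosomes. The longer miR-92a-3p probe gave 616.8 ± 43.7 in sham and 966.1 ± 52.3 in OVX (15 spots each), and the shorter one 103.0 ± 10.8 (14 spots) and 152.8 ± 15 (13 spots). miR-92a-3p was 0.756-fold (log2 -0.40, spot SE 0.03), rank 152 of 197. The longer miR-25-3p probe gave 512.8 ± 30.5 and 834.5 ± 40.2 (15 spots each), and the shorter one 85.8 ± 6.19 (12 spots) and 126.6 ± 13.8 (15 spots). miR-25-3p was 0.768-fold (log2 -0.38, spot SE 0.03), rank 150. The difference of miR-92a-3p minus that of miR-25-3p was -0.02 (spot SE 0.04). The miR-25-3p probes themselves stood at -0.31 and -0.45. With the GC trend removed the pair lay farther apart, with miR-92a-3p at -0.24 and miR-25-3p at -0.39. The miR-92a-3p probes have 2 mismatches with miR-25-3p, and binding between the pair was not tested.

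miR-17-3p, made from the same hairpin as miR-17-5p, had the lowest difference of the 9. Its 15-base probe gave 40.9 ± 5.22 (14 spots) in sham and 55.0 ± 5.84 (15 spots) in OVX, a ratio of 1.35 before scaling, the smallest among the usable probes of the products. After scaling it was 0.667-fold (log2 -0.58, spot SE 0.06), rank 168. Its other probe, 1 base shorter, gave 13.2 ± 2.75 and 19 ± 3.81 (15 spots each) and was not well above background on either array. A single dim probe thus carried this value, and the arms of the hairpin could not be compared because miR-17-5p was not present in sham.

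After scaling, the spots of a probe did not overlap between the arrays for 5 of the 17 usable probes of the products, against 37.1% of the 350 usable probes on the array. These 5 were the brighter probe of miR-19a-3p, of miR-19b-3p, of miR-92a-3p and of miR-17-3p and the dimmer probe of miR-25-3p. All probes of miR-18a-5p, miR-20a-5p, miR-106b-5p and miR-93-5p had overlapping spots. Spots of 1 array share its labelling and hybridisation, so this describes technical spread only.

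**Figure D2:**
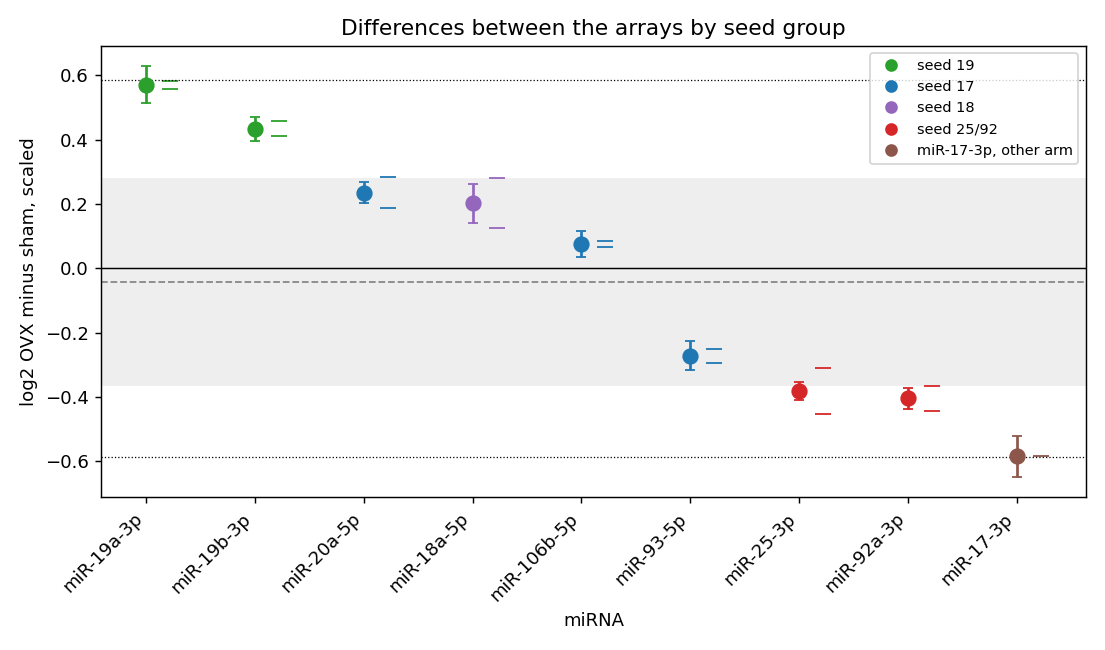
Scaled log2 difference, OVX minus sham, of the 9 products present on both arrays, coloured by seed group, with the spot SE as error bar and each usable probe as a dash at its right; the grey band and dashed line are the quartiles and median of all 197 miRNAs, and dotted lines mark 1.5-fold. The miR-19 pair lies at 0.43 and 0.57, the miR-25 and miR-92a pair at -0.38 and -0.40.

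The products of a single precursor did not differ alike. The 6 measured products of miR-17-92 had a median difference of 0.22 and ranged from -0.58 for miR-17-3p to 0.57 for miR-19a-3p. The 4 of them without a copy on chromosome X, miR-17-3p, miR-18a-5p, miR-19a-3p and miR-20a-5p, had the same lowest and highest values. The lowest, that of miR-17-3p, came from 1 dim probe, and the others were all above 0, from 0.20 to 0.57. The miR-20a-5p probes also have 1 mismatch with miR-20b-5p of chromosome X. The 3 products of miR-106b-25 had a median of -0.27. The medians of the clusters differed by 0.49, which compares unlike sets, because miR-106b-25 holds no miR-19 or miR-18 product. Products with a shared seed could be set against each other across the clusters. miR-20a-5p exceeded miR-106b-5p by 0.16 (spot SE 0.05) and miR-93-5p by 0.51 (spot SE 0.06). As reported, miR-92a-3p and miR-25-3p differed by less than their spot error, but not with the GC trend removed.

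**Figure D3:**
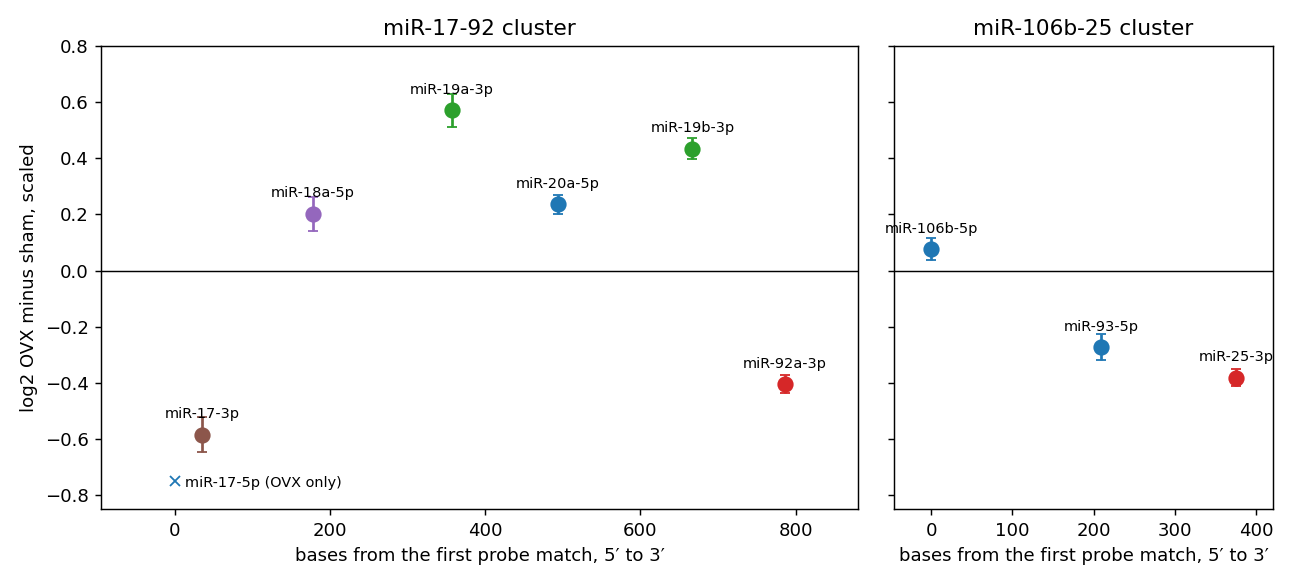
Scaled log2 difference, with spot SE, against the distance in bases from the first probe match of the cluster along the transcript, for miR-17-92 (left) and miR-106b-25 (right), coloured by seed as in the plot of differences; the cross marks only the position of miR-17-5p, which has no difference. miR-19a-3p and miR-19b-3p stand highest at 357 and 667 bases, and miR-92a-3p, at 786 bases, lies below 0.

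The seed groups also differ in base composition, which moved with the differences. The probes of miR-19a-3p and miR-19b-3p had 34.2% and 38.4% G and C, those of miR-18a-5p and miR-20a-5p 45.9%, those of miR-106b-5p 51.5%, and those of miR-92a-3p 69.7%. Across the 197 miRNAs the difference was lower at higher probe GC content (Spearman's rho -0.32, Pearson's r -0.32), with a slope of -0.12 per 10 percentage points. Across the 9 products the coefficients were -0.88 and -0.84; the products share the arrays, and some share sequence, so these are descriptions. When the linear trend over all miRNAs was removed, miR-19a-3p stood at 0.32, miR-19b-3p at 0.24, miR-20a-5p at 0.13, miR-18a-5p at 0.09 and miR-106b-5p at 0.03. miR-92a-3p then stood at -0.24, miR-93-5p at -0.28, miR-25-3p at -0.39 and miR-17-3p at -0.61. Each product kept its sign, but miR-93-5p then lay below miR-92a-3p. Within the narrow range from 51.5% to 54.8% GC, the differences before this correction ran from 0.08 for miR-106b-5p through -0.27 for miR-93-5p and -0.38 for miR-25-3p to -0.58 for miR-17-3p, whose usable probe had 53.3%. The effect of base composition on labelling or binding was not tested.

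**Figure D4:**
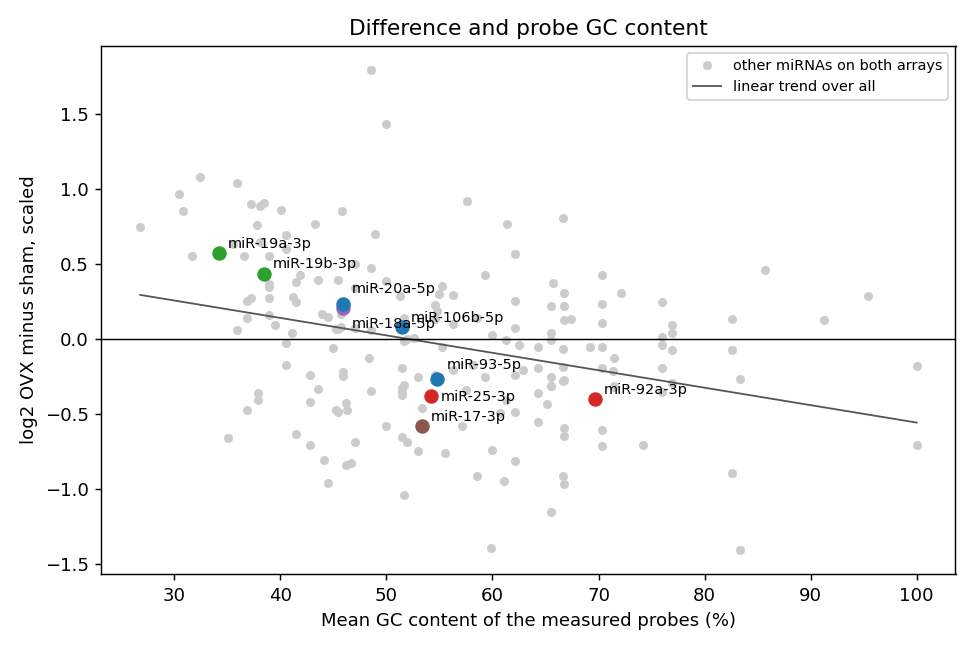
Scaled log2 difference against the mean GC content of the usable probes for the 197 miRNAs present on both arrays, the 9 cluster products in colour and the others in grey (seed colours as in the plot of differences), with the linear trend over all. The products run from miR-19a-3p at 34.2% GC and 0.57 to miR-92a-3p at 69.7% and -0.40, with miR-17-3p at 53.3% well below the trend.

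The other arms of the hairpins, like most miRNAs on the array, were not detected. None of the 8 further arms listed, miR-18a-3p, miR-19a-5p, miR-19b-1-5p, miR-20a-3p, miR-92a-1-5p, miR-106b-3p, miR-93-3p and miR-25-5p, was well above background on either array. The brightest of their probes, for miR-106b-3p, gave 8.34 ± 2.04 in sham and 13.0 ± 3.56 in OVX (7 spots each), below the lowest signals of a present probe, 17.8 and 19.3. Of the paralogous miR-106a-363 cluster, only miR-20b-5p was present among the 9 products with probes of their own name:
miR-20b-5p: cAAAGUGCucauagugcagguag
It differs from miR-20a-5p by U1C and U10C. Its probes gave 160.6 ± 21.0 (15 spots) in sham and 378.5 ± 33.3 (14 spots) in OVX, and 73.7 ± 10.6 (15 spots) and 188.3 ± 7.34 (12 spots). Its difference was 0.28 (spot SE 0.04), beside 0.24 for miR-20a-5p, whose probes have 1 mismatch with it and 1 with miR-17-5p. miR-18b-5p and miR-363-3p, which carry the miR-18 and the miR-25 and miR-92a seeds, were not well above background on either array. Neither were the 4 other miRNAs on the array with a seed of the clusters, miR-32-5p, miR-92b-3p, miR-367-3p and miR-6383. Of all 1881 miRNAs 10.7% were present in sham and 15.9% in OVX, so these absences are not particular to the lists.

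**Figure D5:**
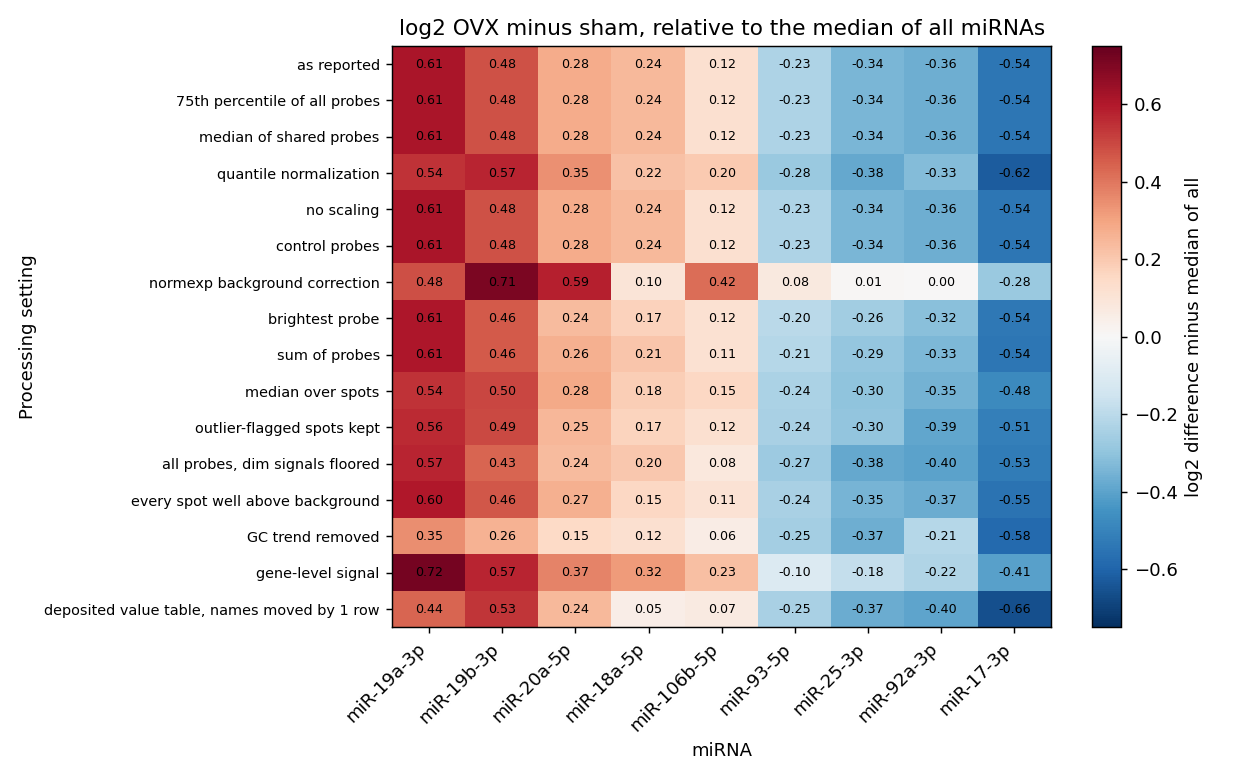
Log2 difference of each product minus the median difference of all miRNAs (columns, from highest to lowest as reported) under each processing setting (rows), with the value in every cell. miR-19a-3p, miR-19b-3p, miR-20a-5p, miR-18a-5p and miR-106b-5p were above the median of all in every setting and miR-17-3p below it. miR-93-5p, miR-25-3p and miR-92a-3p were below it except with normexp background correction, where they stood at 0.08, 0.01 and 0.00. Settings that shift every miRNA alike repeat the reported row by construction.

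The sign of a difference depended on the scaling. Without scaling all 9 were above 0, from 0.43 for miR-17-3p to 1.58 for miR-19a-3p, and with the arrays scaled to control probes all 9 were above 0 as well, from 0.06 to 1.21. These settings shift every miRNA alike, so the gap of 1.15 between miR-19a-3p and miR-17-3p was the same in each. Scaled to the median, miR-106b-5p moved from 0.08 to -0.11, and miR-18a-5p and miR-20a-5p stood at 0.02 and 0.05. With the scanner software's gene-level signal 7 of the 9 were above 0. The miR-19 pair lay above the measured miR-17 group, and that above the miR-25 and miR-92a pair, in 13 of 15 alternative settings. The exceptions were normexp background correction and removal of the GC trend. Part of that count holds by construction. Scaling over all probes, to the median or to control probes, and no scaling, could not change the order, because they shift every miRNA alike. The lower border of the miR-17 group rested on miR-93-5p above miR-25-3p by 0.11 as reported, which was not resolved.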

How the data were processed

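Femur RNA of 1 sham pool and 1 OVX pool was measured on 1 array each; groups came from the sample titles. The deposited scanner files hold intensities from Agilent Feature Extraction (version 10.7.1.1 per the file headers, 11.0.1.1 per the submitters' processing notes): the processed intensity is background-subtracted with a spatial detrend and not normalized between arrays. The label protocol names a cRNA amplification kit. The authors also deposited a table of log2 values, whose making is not given in the sources used here, with column medians of -3.18 (sham) and -3.32 (OVX). With its names moved by 1 row it correlated with the arrays' gene-level signals at Spearman's rho 0.996 and 0.994, and as printed at 0.02 and 0.04, so it served as an alternative with moved names; its centring and scale factor stay unknown.

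Of 56430 miRNA spots per array, 1554 (sham) and 1635 (OVX) with an outlier flag were left out, 12 of 300 spots of the cluster products on each array among them; none of the 300 was saturated. Negative control spots averaged 1.93 ± 2.81 (SD, 982 spots) and 1.36 ± 2.86 (SD, 978 spots). Spot signals were averaged per probe, scaled to the 75th percentile over 350 probes as log2, and averaged per miRNA (Python 3.11.15, pandas 2.3.3; limma 3.58.1 for normexp with an offset of 50). The number of arrays limits the precision. The recovery of known differences was tested on simulated spots, with errors taken after centring on the unchanged miRNAs. The zero point set by the scaling and the rule for presence were not tested in this way. The products, marker lists and named miRNAs (every product, and each listed miRNA by its presence) were chosen with earlier results of these data known. Alternatives were other scalings, background correction, summaries, filters, GC correction and value sources.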

Additional observations from a re-analysis of the deposited data

How the results depend on the processing

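The median difference of the products, 0.08 as reported, was 0.23 scaled to the 75th percentile of all probes, -0.11 scaled to the median, 1.09 without scaling, 0.72 with control probes, -0.16 with normexp and 0.42 with the gene-level signal; minus the median of all miRNAs present it lay between 0.05 and 0.23 in all 15 alternatives. The number of products at least 1.5-fold different, 0 as reported, was 2 with the 75th percentile of all probes, 2 with median scaling, 1 with quantile normalization, 8 without scaling, 5 with control probes, 1 with the sum of probes, 1 after removal of the GC trend, 2 with the gene-level signal and 1 in the deposited value table. The median of miR-17-92 minus that of miR-106b-25, 0.49, fell to 0.21 with normexp. The miR-17 group minus the miR-19 pair, -0.43, became -0.18 with normexp and -0.25 after removal of the GC trend, and the miR-17 group minus the miR-25 and miR-92a pair, 0.47, became 0.35 after that removal. No other alternative moved these 3 contrasts by more than the SD between probes, 0.11. Single products with another sign were miR-18a-5p, -0.16 with normexp, and those moved by scaling or the gene-level signal. Scaling to another percentile, the median or control probes, and no scaling, shift all miRNAs alike; for the other settings, quantile normalization among them, the cause was not tested. miR-17-5p, not present in sham, stood at 0.13 with dim signals floored and, in the deposited value table, at 2.61 in sham and 2.34 in OVX. No paired analysis was possible because each group has 1 array.

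Limits were signal over background for miR-17-5p, miR-17-3p and the shorter probe of miR-18a-5p, and 1 array per group. Further limits were probes shared with chromosome X copies, and close sequences within seed groups.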
